A study of Mus musculus with 114 samples.

Results

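The genes described here were those that stood higher in adipocytes of high fat diet (HFD) mice than of chow diet (CD) mice at the earliest time and lower at the latest time. They were chosen on the measured values: of 29132 genes listed, 10343 had a mean log2(CPM + 1) above 2 over the 38 mice, and 10112 of these did not carry a symbol starting with Nduf, Mrp, Rpl, Rps or Col. Of these, 2118 had an HFD mean above the CD mean at 8 weeks and below it at 34 weeks, and the 100 with the largest smaller one of the 2 differences were kept. CPM are reads of a gene per 1000000 reads on genes, and all differences given below are HFD minus CD on the log2(CPM + 1) scale, which understates the change of low genes. The 8 and 34 week differences, and any comparison of those mice, chose the genes and are given as a description with no test. The mice at 20 weeks entered the choice only through the mean over all mice, so HFD against CD at 20 weeks is the comparison that was tested. That test took its estimate of the spread from all groups, the mice at 8 and 34 weeks included.

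The mice were male animals, C57BL/6 in the labels and C57BL/6J in the study's methods, with no transgene named, put on CD or HFD at 6 weeks of age and kept on it for 8, 20 or 34 weeks. Each diet had 6 mice at 8 weeks and 6 at 20 weeks. At 34 weeks there were 8 CD mice and 6 on HFD. The tissue was perigonadal white fat, from which the authors took the adipocytes that float after collagenase digestion, a fraction that can carry attached cells. Each mouse had 3 technical replicates, which the values merge, so n counts mice. Mice kept longer on a diet were also older, so time on diet and age cannot be told apart. The study's methods name alternative formulas of the control diet and do not say which mice had which. A part of the formula in the CD levels was not tested.

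Adipocytes store fatty acids as triglyceride and make part of those fatty acids themselves, from acetyl-CoA and NADPH, while a separate branch turns acetyl-CoA into cholesterol. Both branches are driven by SREBP transcription factors, the first also by insulin and carbohydrate. Fat also holds macrophages. Those resident in lean fat are known for lectins of the Cd209 family, the haemoglobin scavenger receptor Cd163 and the hyaluronan receptor Lyve1, whereas macrophages that gather around dying adipocytes in obesity carry lipid-handling genes. Collagen chaperones, glutathione transferases and interferon-stimulated genes are further groups with members among the 100.

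The libraries held 9275711 to 15480388 reads on genes, so that 1 read was worth 0.0646 to 0.108 CPM. All 20 adipocyte markers were detected, and their summed level ranged from 80241 to 101033 CPM in CD mice at 8 weeks, with 58569 to 83509 CPM in HFD mice. The adipocyte sums were 69364 to 109829 CPM with CD and 43550 to 57457 CPM with HFD at 20 weeks, and 50798 to 109832 CPM with CD and 28238 to 65889 CPM with HFD at 34 weeks. The 18 macrophage markers ranged in sum from 603 to 2264 CPM in CD mice and 1709 to 5034 CPM in HFD mice at 8 weeks. At 20 weeks the sums were 1288 to 4807 CPM with CD and 6527 to 13846 CPM with HFD, and at 34 weeks 1575 to 16903 CPM with CD and 7669 to 23536 CPM with HFD. No marker of either list was at 0 in every mouse. Fewer cells of a type and less RNA per cell cannot be told apart in such pooled RNA, and the part of cell makeup in the values below was not tested. CD mouse 5 at 34 weeks stood apart from its group for the 100 genes, as given below.

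The mean over the 100 genes, in log2(CPM + 1), had its lowest, median and highest value at 3.95, 4.10 and 4.25 in CD mice and 4.65, 5.09 and 5.37 in HFD mice at 8 weeks. At 20 weeks it was 3.96, 4.35 and 4.54 in CD mice and 4.12, 4.46 and 4.68 in HFD mice. At 34 weeks it was 4.45, 5.21 and 5.41 in CD mice and 4.00, 4.25 and 4.71 in HFD mice. The diets overlapped at 20 weeks, and at 34 weeks they overlapped through CD mouse 5, the lowest of its group at 4.45 where the other 7 lay between 5.05 and 5.41. CD mice at 34 weeks had a higher mean than CD mice at 8 weeks for 94 of the 100 genes, where 58.9% of all genes tested did so. The median difference was 0.96 against 0.13 over all genes tested. HFD mice at 34 weeks had a lower mean than HFD mice at 8 weeks for 92, where 44.7% of all genes tested did so. The median difference was -0.72 against 0.06 over all genes tested. CD mice at 34 weeks stood near HFD mice at 8 weeks, a likeness that the choice of the genes favours. These values come from the mice that chose the genes.

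**Figure D1:**
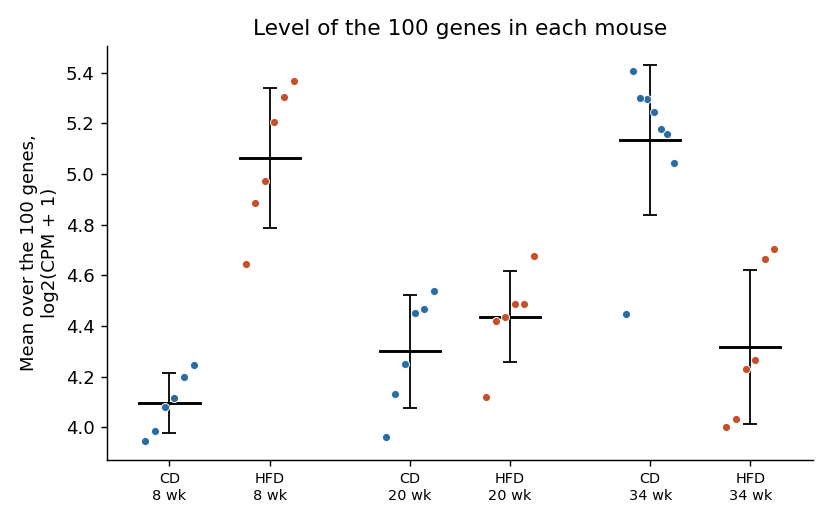
Mean log2(CPM + 1) over the 100 genes in each of the 38 mice, by diet and weeks of diet. Each point is a mouse, the horizontal line is the group mean and the bar is 1 SD. CD mice at 34 weeks stand between 4.45 and 5.41, about where HFD mice stand at 8 weeks, between 4.65 and 5.37. The choice of the genes favours this likeness.

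By the choice, the difference at 8 weeks ran from 0.50 to 3.34 with a median of 0.83, and that at 34 weeks from -2.51 to -0.50 with a median of -0.73. Without CD mouse 5 at 34 weeks the median at 34 weeks was -0.83 and all 100 differences stayed below 0. The last genes inside the threshold were Klhl8, Smim8 and Serpinh1, whose smaller difference was 0.505, 0.50 and 0.499, and the first outside it were Mapk11, Mc2r and Pop5 at 0.498, 0.497 and 0.496. Values on both sides of the threshold were thus nearly equal. Mean levels over all mice ran from 3.71 to 704 CPM with a median of 20.2 CPM, against 32.8 CPM for the genes tested, and 35 of the 100 averaged below 10 CPM. Of the 100, 97 were annotated as protein coding. All values of HFD mice stood above all values of CD mice at 8 weeks in 44 of the 100, where 15.7% of all genes tested did so, and all stood below at 34 weeks in 1, Gm2830, a predicted gene, where the share was 0.986%.

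At 20 weeks the 100 genes did not share a direction. In limma, a two-sided test fitted on all 10343 genes with Benjamini-Hochberg adjustment, 25 of the 100 were higher in HFD and 8 were lower at an adjusted p under 0.05. Over all genes tested, 38.3% were called higher and 18.7% lower, 57.0% in all, so the 33 called of 100 were below the background. The fit pooled the spread over all groups. In the 20 week mice alone, 31 of the 100 were called higher and 16 lower, with no count taken over all genes. The median difference of the 100 was 0.14, the same as the 0.14 of all genes tested, and 61 of the 100 lay above 0 where 61.0% of all genes did. The difference at 20 weeks lay between those of 34 and 8 weeks for 88 genes, above that of 8 weeks for 3 and below that of 34 weeks for 9. By the choice, no 8 week difference was below 0.50 and no 34 week difference was above -0.499. A 20 week difference near 0 thus lay between them by the choice, so the 88 do not show a gradual course. All HFD mice stood above all CD mice for 3 genes, Ltc4s, Amotl2 and Gjc1, against 26.1% of all genes, and all stood below for 1, Cd1d1, against 11.1%. The split of calls depended on the scaling of the libraries. CPM left the median of all genes at 0.14, TMM scaling moved it to -0.07 and median-of-ratios scaling to -0.03, and the calls among the 100 became 13 higher and 16 lower with TMM and 16 higher and 12 lower with median-of-ratios. Over the 10343 genes tested, 2718 were higher and 3356 lower with TMM, and 2947 higher and 3011 lower with median-of-ratios. Without CD mouse 5 or without HFD mouse 1 at 20 weeks, 5 were called lower, and without CD mouse 3, 18 were called higher. Leaving out at least 1 mouse took away the call of 8 genes called higher (Gamt, Glipr2, Ier2, Irs3, Ndn, Nid2 and Spry4 among them) and of 4 called lower (Cd1d1, Cd209f, Rab9b and Retnla). The call of Rab9b was lost without any 1 of 9 mice, that of Nid2 of 8 and that of Ndn of 7. For each of the others it was 6 or fewer. Of the 33 calls, 17 were made in the same direction in every one of 21 alternative settings, 13 of them higher (Scd2, Cdkl4, Amotl2, Ak1, Islr, Serpinh1, Gjc1, Dclk3, Golga7b, Ltc4s, Rab3a, Enho and Erbb2), which are the 13 higher with TMM scaling, and 4 lower (Cd209b, Cd209d, Cd209g and Cd163).

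**Figure D2:**
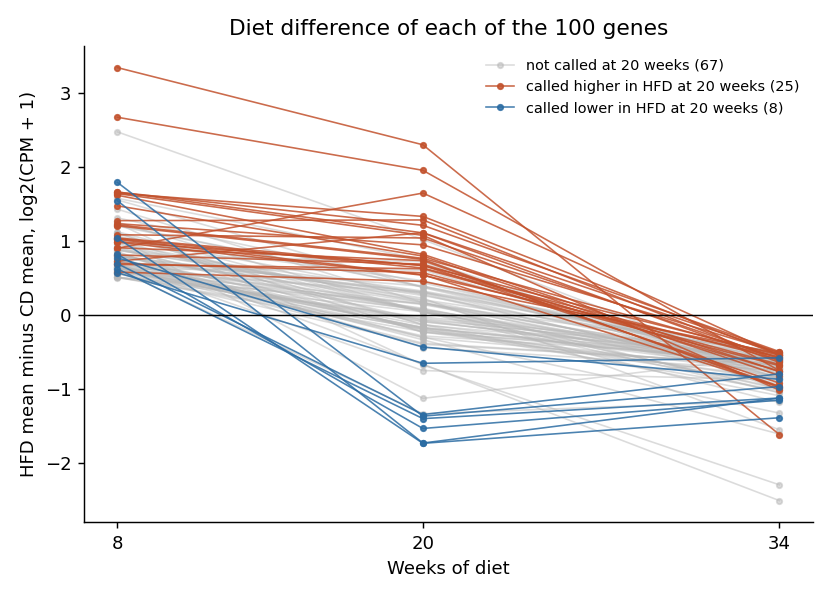
Difference between HFD and CD means in log2(CPM + 1) against weeks of diet, 1 line per gene. Red lines are the 25 genes called higher at 20 weeks, blue lines the 8 called lower and grey lines the 67 not called. All lines start above 0 and end below 0 by the choice of the genes, and at 20 weeks they spread from -1.74 to 2.30.

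Of the 100, 4 belonged to the fatty acid synthesis list: Scd2, a stearoyl-CoA desaturase that makes monounsaturated fatty acids, Acss2, which makes acetyl-CoA from acetate, Elovl6, which lengthens palmitate, and Me1, malic enzyme, a source of NADPH. At 20 weeks Scd2 was called higher in HFD, and the others had values below 0 and were not called. Scd2 had lowest, median and highest levels of 27.1, 63.3 and 159 CPM in CD mice and 167, 760.0 and 1262 in HFD mice at 8 weeks. At 20 weeks Scd2 stood at 15.2, 59.9 and 167 in CD mice and 79.9, 329.7 and 441 in HFD mice. At 34 weeks Scd2 stood at 144, 905 and 1736 in CD mice and 169.8, 234 and 586 in HFD mice. HFD mice stood above all CD mice at 8 weeks, overlapped them at 20 weeks through 1 HFD mouse, and overlapped them at 34 weeks through CD mouse 5, which had 144 CPM where the other CD mice had at least 768 CPM. The difference of Scd2 (Entrez 20250) was 3.34 at 8 weeks, 2.30 ± 0.57 (SE, adjusted p = 0.000912) at 20 weeks and -1.62 at 34 weeks, and all 6 HFD mice lay above the CD mean at 20 weeks. The CD median of Scd2 at 34 weeks was more than that of HFD mice at any time.

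Acss2 had lowest, median and highest levels of 64.4, 80.4 and 99.5 CPM in CD mice and 101, 224 and 278 in HFD mice at 8 weeks. At 20 weeks Acss2 stood at 83.8, 124 and 201 in CD mice and 48.7, 85.9 and 103 in HFD mice. At 34 weeks Acss2 stood at 85, 283 and 1357 in CD mice and 41.8, 74 and 119.5 in HFD mice. The HFD mice stood above every CD mouse at 8 weeks, and at 20 weeks all 6 lay below the CD mean although the ranges overlapped. The difference of Acss2 was 1.23 at 8 weeks and -2.30 at 34 weeks, and at 20 weeks it was -0.68 ± 0.41 (SE, adjusted p = 0.161), not called. Elovl6 had lowest, median and highest levels of 10.2, 17.6 and 26.7 CPM in CD mice and 17, 36.6 and 46.4 in HFD mice at 8 weeks. At 20 weeks Elovl6 stood at 18.8, 30.4 and 77.7 in CD mice and 10, 22 and 27.8 in HFD mice. At 34 weeks Elovl6 stood at 17.5, 104 and 292 in CD mice and 7.28, 14.4 and 26.2 in HFD mice. The widest range was again that of CD mice at 34 weeks. The difference of Elovl6 at 20 weeks was -0.67 ± 0.45 (SE, adjusted p = 0.205), not called, and that at 34 weeks was the lowest of the 100 at -2.51. Me1 had lowest, median and highest levels of 324, 387 and 463 CPM in CD mice and 424, 740.1 and 838 in HFD mice at 8 weeks. At 20 weeks Me1 stood at 377, 491 and 881 in CD mice and 327, 453 and 515 in HFD mice. At 34 weeks Me1 stood at 392, 1019 and 3824 in CD mice and 267, 472 and 729.8 in HFD mice. The difference of Me1 at 20 weeks was -0.30 ± 0.35 (SE, adjusted p = 0.474), not called, with all 6 HFD mice below the CD mean, and -1.33 at 34 weeks. Antisense transcripts are annotated over exons of Acss2, Elovl6 and Me1, 25 of the 100 share exon bases with a gene on the opposite strand (Lss, Ltc4s, Cdkl4, Erbb2, Nid2, Rab3a, Enho, Mogat2 and Usp18 among those named here), and 10 with one on the same strand (Islr, Tm7sf2 and Tlcd2 among them). Whether the counting used strand is not given in the sources used here. These overlaps are from a later annotation than the one the study counted on. The whole fatty acid synthesis list had 21 tested genes, of which 5 were called higher and 10 lower at 20 weeks, with a median of -0.68 against 0.14 over all genes. With TMM scaling 4 were higher and 11 lower, with a median of -0.89 against -0.07. The list median was 0.33 at 8 weeks and -1.29 at 34 weeks, but the 4 members were chosen on those times. Without the 4, the other 17 had medians of 0.07 at 8 weeks, where that of all genes was 0.11, -0.79 at 20 weeks and -1.21 at 34 weeks.

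Another 5 of the 100 belonged to cholesterol synthesis: Pmvk of the mevalonate steps, Fdps, which makes farnesyl diphosphate, Lss, lanosterol synthase, and the sterol-modifying enzymes Nsdhl and Tm7sf2. Fdps and Lss were called higher in HFD at 20 weeks and the others were not called. Fdps had lowest, median and highest levels of 12.5, 14.3 and 18.9 CPM in CD mice and 18.7, 50.8 and 69.8 in HFD mice at 8 weeks. At 20 weeks Fdps stood at 13.5, 17.1 and 25.9 in CD mice and 19.9, 33.6 and 39.8 in HFD mice. At 34 weeks Fdps stood at 31.4, 86.8 and 155 in CD mice and 26.5, 47.2 and 55.3 in HFD mice. HFD and CD mice overlapped at each time, and all 6 HFD mice at 20 weeks lay above the CD mean. The difference of Fdps at 20 weeks was 0.79 ± 0.29 (SE, adjusted p = 0.0182), and with TMM scaling 0.59 with an adjusted p of 0.0849 (3.58e-05 to 0.0849 over the 21 alternatives). Fdps shares exon sequence with an annotated gene on the same strand, Gm43738. Lss had lowest, median and highest levels of 17.7, 22.4 and 25.8 CPM in CD mice and 31.1, 52.7 and 82.6 in HFD mice at 8 weeks. At 20 weeks Lss stood at 17.5, 21.4 and 32.1 in CD mice and 27.4, 38.9 and 49.5 in HFD mice. At 34 weeks Lss stood at 24.2, 58.9 and 98.4 in CD mice and 24.8, 45.7 and 54.5 in HFD mice. At 8 weeks the diets did not overlap, and at 34 weeks the lowest CD mouse, mouse 5, was level with the lowest HFD mouse. The difference of Lss at 20 weeks was 0.76 ± 0.25 (SE, adjusted p = 0.011), and with TMM scaling 0.55 with an adjusted p of 0.0636 (1.21e-05 to 0.0636 over the 21 alternatives), so neither was called with that scaling. The 20 week differences of Nsdhl, Pmvk and Tm7sf2 were 0.39 ± 0.29 (SE, adjusted p = 0.252), 0.06 ± 0.23 (SE, adjusted p = 0.824) and -0.39 ± 0.20 (SE, adjusted p = 0.0964). The last was called lower with TMM scaling, at -0.58 with an adjusted p of 0.0185 (0.0137 to 0.214 over the 21 alternatives). Over the list of 23 tested genes, 12 were higher and 2 lower at 20 weeks with a median of 0.69, and with TMM scaling 10 were higher and 4 lower with a median of 0.47. The list median was 0.72 at 8 weeks and -0.26 at 34 weeks. Without the 5 members, which were chosen on those times, the other 18 had medians of 0.64 at 8 weeks, 0.76 at 20 weeks and -0.09 at 34 weeks.

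**Figure D3:**
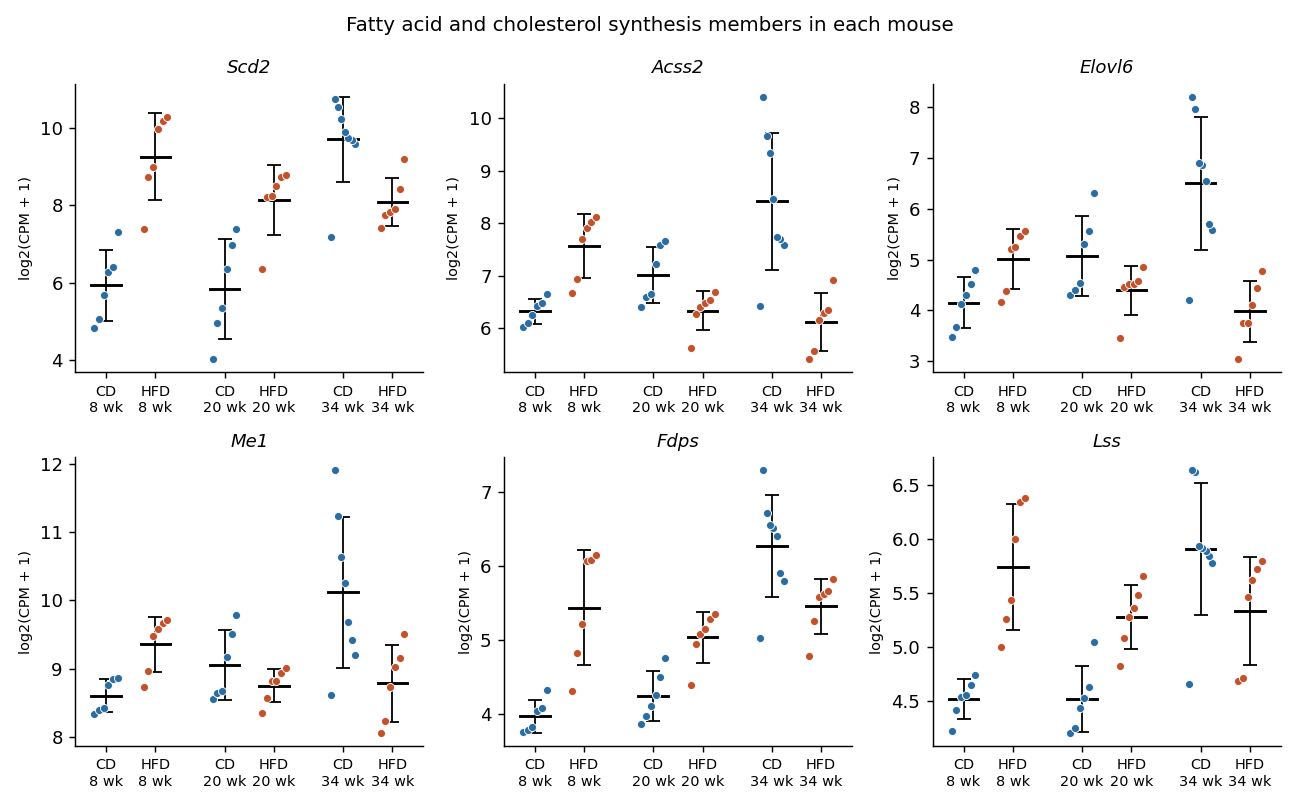
Levels in log2(CPM + 1) of 4 fatty acid and 2 cholesterol synthesis genes in each mouse, by diet and weeks of diet. Points are mice, lines are group means and bars are 1 SD. In CPM the range from the lowest to the highest mouse is widest in CD mice at 34 weeks for each gene, from 144 to 1736 CPM for Scd2 and from 85 to 1357 CPM for Acss2.

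Further members handle lipids. Mogat2, a monoacylglycerol acyltransferase of triglyceride synthesis, was the third most different of the 100 at 8 weeks, at 2.47, and stood at 1.02 ± 0.52 (SE, adjusted p = 0.0908) at 20 weeks, not called. Mogat2 had lowest, median and highest levels of 1.61, 2.63 and 3.43 CPM in CD mice and 3.03, 26.3 and 45.3 in HFD mice at 8 weeks. At 20 weeks Mogat2 stood at 1.45, 4.25 and 7.11 in CD mice and 2.2, 11 and 13.6 in HFD mice. At 34 weeks Mogat2 stood at 2.74, 27.9 and 45.1 in CD mice and 6.83, 12.6 and 22 in HFD mice. The HFD mice at 8 weeks spread from near the CD level to well above it. Pnpla3, a lipase of the droplet surface, Tecr, which completes fatty acid elongation, and Mpc2, part of the mitochondrial pyruvate carrier, had 20 week differences of -0.17, -0.19 and -0.23, none called. Acaa1b, a peroxisomal thiolase, stood at 0.37 and Nudt7, a peroxisomal coenzyme A hydrolase, at -0.29, also not called. With TMM scaling Tecr and Nudt7 were called lower, with adjusted p of 0.0465 (0.0415 to 0.442 over the 21 alternatives) and 0.0476 (0.0299 to 0.41 over the 21 alternatives). Fam57b, related to ceramide synthesis, and Tlcd2, a membrane lipid protein, stood at 0.04 ± 0.26 (SE, adjusted p = 0.902) and 0.22 ± 0.28 (SE, adjusted p = 0.51) at 20 weeks after 1.12 and 0.87 at 8 weeks. Fam57b overlaps exons of the glycolytic gene Aldoa on the opposite strand.

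Some macrophage genes among the 100 were called lower in HFD at 20 weeks. The lectins Cd209b, Cd209d, Cd209f and Cd209g, which bind mannose-type sugars, Cd163, Retnla, a secreted product of alternatively activated macrophages, Fcna, a ficolin of macrophages, and Lyve1 were grouped here after their values were seen. Of these 8, 6 were called lower in HFD at 20 weeks, where 18.7% of all genes tested were, and they make up 6 of the 8 members called lower. Since the group was made with these values in view, its count is a description only. Lyz1, a lysozyme and besides Cd163 the only other member on the macrophage marker list, was not put in the group and stood at 0.04, not called. Lyve1 was not on the macrophage list but on that of lymphatic endothelial markers. The other tested gene of the lymphatic list stood at 2.195 at 20 weeks and was called higher. Cd209d and Cd209b lie at chr8:3871824-3878548 and chr8:3917655-3926841, and Cd209f and Cd209g at chr8:4102784-4105838 and chr8:4134246-4137707 (RefSeq, GRCm38.p6). They are close relatives, so the reads of one may be counted for or lost to another, and their values are not independent.

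Cd209d had lowest, median and highest levels of 0.663, 2.42 and 7.14 CPM in CD mice and 6.2, 8.38 and 21.5 in HFD mice at 8 weeks. At 20 weeks Cd209d stood at 5.08, 11.7 and 14.9 in CD mice and 1.27, 2.19 and 5.67 in HFD mice. At 34 weeks Cd209d stood at 1.66, 5.51 and 16.1 in CD mice and 1.15, 2.39 and 3.41 in HFD mice. At 20 weeks the diets overlapped only through the lowest CD mouse and the highest HFD mouse, 5.08 against 5.67 CPM. Cd209b had lowest, median and highest levels of 1.99, 2.84 and 18.6 CPM in CD mice and 7.01, 9.66 and 16.3 in HFD mice at 8 weeks. At 20 weeks Cd209b stood at 7.14, 18.3 and 20.2 in CD mice and 2.17, 3.35 and 7.88 in HFD mice. At 34 weeks Cd209b stood at 1.66, 7.02 and 14.7 in CD mice and 0.822, 1.89 and 2.25 in HFD mice. HFD mice at 20 weeks were about where CD mice had been at 8 weeks for both lectins. The 20 week difference was -1.74 ± 0.37 (SE, adjusted p = 0.000163) for Cd209d, -1.74 ± 0.39 (SE, adjusted p = 0.000293) for Cd209b, -1.54 ± 0.58 (SE, adjusted p = 0.0225) for Cd209f and -1.41 ± 0.48 (SE, adjusted p = 0.0133) for Cd209g, and all 6 HFD mice lay below the CD mean for each. For Cd209f and Cd209g the CD mice at 8 weeks formed a low and a high set of 3 each, with 3.41 to 54.1 CPM for Cd209f. The mean of the 8 macrophage genes in log2(CPM + 1) split the same way, along the mouse numbers. It was 2.77 to 3.11 in CD mice 1, 2 and 3 and 4.34 to 5.36 in CD mice 4, 5 and 6. HFD mice at 8 weeks had 4.51 to 5.79 and overlapped the high set. The cause of the split was not tested.

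Cd163 had lowest, median and highest levels of 16.2, 41.9 and 110.4 CPM in CD mice and 46.6, 62.8 and 71.8 in HFD mice at 8 weeks. At 20 weeks Cd163 stood at 40, 118 and 181 in CD mice and 26.6, 36 and 80.4 in HFD mice. At 34 weeks Cd163 stood at 7.48, 43.2 and 88.4 in CD mice and 12.7, 20.8 and 35.7 in HFD mice. Retnla had lowest, median and highest levels of 41.9, 77.5 and 177 CPM in CD mice and 193, 280.3 and 673 in HFD mice at 8 weeks. At 20 weeks Retnla stood at 45, 175 and 272 in CD mice and 22.2, 47 and 189 in HFD mice. At 34 weeks Retnla stood at 29.3, 46.3 and 161 in CD mice and 4.36, 27.8 and 88.7 in HFD mice. Cd163 had the highest median in CD mice at 20 weeks and Retnla in HFD mice at 8 weeks, where every HFD mouse stood above every CD mouse. At 20 weeks the difference was -1.35 ± 0.45 (SE, adjusted p = 0.0113) for Cd163 and -1.37 ± 0.54 (SE, adjusted p = 0.0288) for Retnla, with 1 HFD mouse above the CD mean of Retnla. Retnla was called in 15 of the 21 alternatives, with adjusted p of 0.000489 to 0.0818. Fcna stood at -0.76 ± 0.44 (SE, adjusted p = 0.141) and Lyve1 at -1.13 ± 0.53 (SE, adjusted p = 0.0652), not called, although Lyve1 was called with TMM scaling at -1.34 with an adjusted p of 0.0272 (0.00503 to 0.128 over the 21 alternatives). The mean of the 8 genes in log2(CPM + 1) had lowest, median and highest values of 3.78, 5.29 and 5.47 in CD mice and 3.08, 3.37 and 4.47 in HFD mice at 20 weeks. General macrophage markers went the other way: of 18 tested, 13 were called higher and 1, Cd163, lower at 20 weeks, with a median of 2.22, and the counts with TMM scaling were also 13 and 1. Of 15 markers of lipid-associated macrophages, 13 were higher and 2 lower, 12 and 2 with TMM scaling, with a median of 4.72. At 34 weeks these markers had medians of 1.56 and 2.28, while the 8 genes above were below 0 by the choice.

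**Figure D4:**
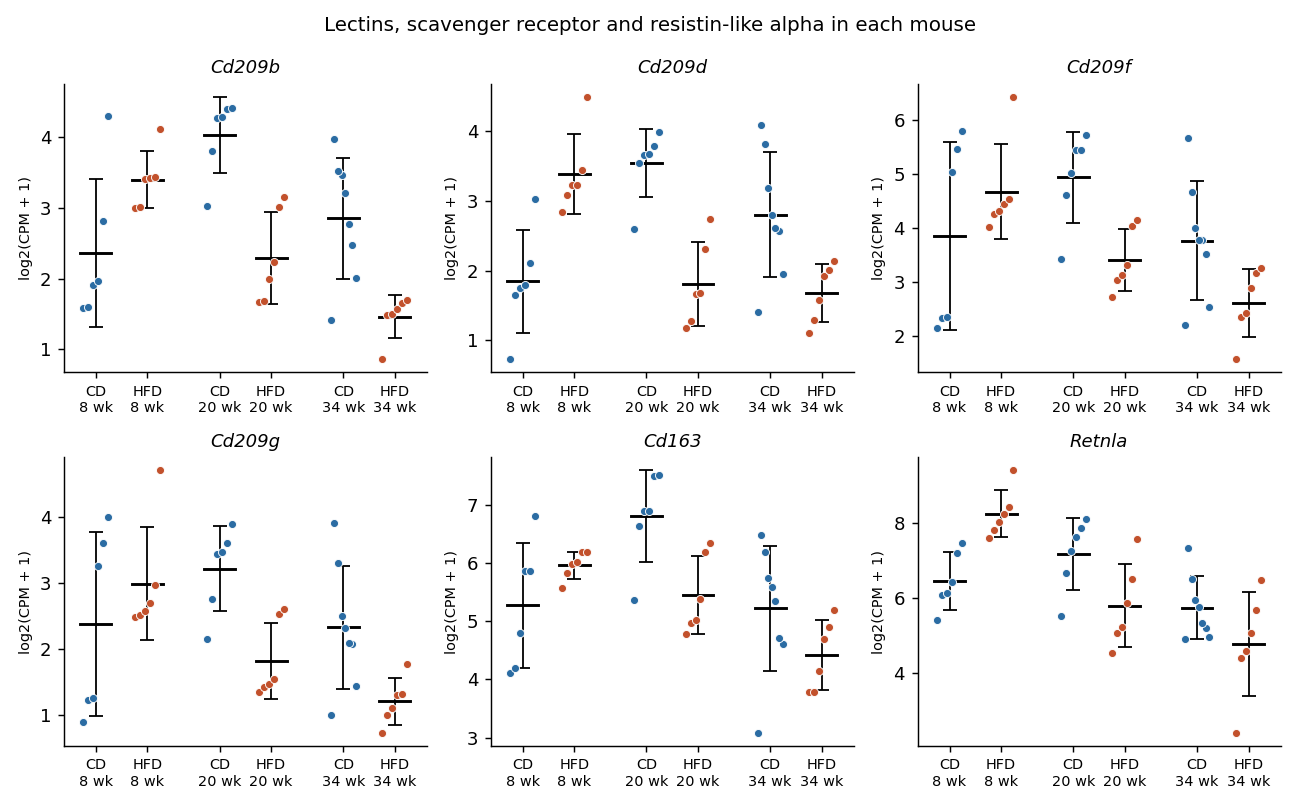
Levels in log2(CPM + 1) of 4 Cd209 lectins, Cd163 and Retnla in each mouse, by diet and weeks of diet. Points are mice, lines are group means and bars are 1 SD. In all 6 panels the mean of HFD mice is above that of CD mice at 8 weeks and below it at 20 and 34 weeks.

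Interferon-stimulated genes among the 100 were Isg15, a ubiquitin-like modifier, Usp18, the protease that removes it, and Ifi27. None was called at 20 weeks, although with TMM scaling Ifi27 was called lower, at -0.39 with an adjusted p of 0.0444 (0.0444 to 0.539 over the 21 alternatives). Isg15 had lowest, median and highest levels of 1.79, 4.28 and 7.14 CPM in CD mice and 3.33, 6.75 and 11.3 in HFD mice at 8 weeks. At 20 weeks Isg15 stood at 7.87, 16.1 and 26.4 in CD mice and 7.3, 27.3 and 54.4 in HFD mice. At 34 weeks Isg15 stood at 3.13, 8.55 and 54.8 in CD mice and 3.99, 5.28 and 6.29 in HFD mice. CD and HFD mice overlapped at every time, and 1 CD mouse at 34 weeks reached 54.8 CPM. The 20 week differences were 0.60 ± 0.46 (SE, adjusted p = 0.264) for Isg15, -0.05 ± 0.32 (SE, adjusted p = 0.907) for Usp18 and -0.17 ± 0.16 (SE, adjusted p = 0.354) for Ifi27. Of the 30 tested genes of the interferon list, 3 were higher and 12 lower at 20 weeks with a median of -0.48, and 1 was higher and 15 lower with TMM scaling. The Isg15 promoter is shown because, of the 73 members with a promoter in the RefSeq table, it alone held GAAANNGAAA, the core of the interferon-stimulated response element, which 3.10% of 8287 genes tested held. It lies at chr4:156200819-156201068, minus strand, and capitals mark 3 overlapping matches that end 57 bases before the start.
Isg15: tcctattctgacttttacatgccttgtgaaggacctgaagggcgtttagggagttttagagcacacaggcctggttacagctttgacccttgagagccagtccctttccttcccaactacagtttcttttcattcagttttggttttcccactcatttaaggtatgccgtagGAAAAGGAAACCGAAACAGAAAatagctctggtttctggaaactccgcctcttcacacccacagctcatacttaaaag

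Cd1d1, which presents lipid antigens to natural killer T cells, was the member called lower whose groups did not overlap. Cd1d1 had lowest, median and highest levels of 279, 328 and 383 CPM in CD mice and 403, 589.7 and 724 in HFD mice at 8 weeks. At 20 weeks Cd1d1 stood at 356, 388 and 503 in CD mice and 229, 315 and 343 in HFD mice. At 34 weeks Cd1d1 stood at 307, 480.0 and 669 in CD mice and 178, 249 and 393 in HFD mice. Its difference at 20 weeks was -0.44 ± 0.18 (SE, adjusted p = 0.0339). Among other immune members, Ccl5, a chemokine, stood at 0.72 ± 0.67 (SE, adjusted p = 0.368), Lyz1, a lysozyme with a close paralog, at 0.04 ± 0.42 (SE, adjusted p = 0.95), Wfdc17 at 0.29 ± 0.50 (SE, adjusted p = 0.635) and Slpi, a protease inhibitor, at 0.04 ± 0.61 (SE, adjusted p = 0.964). Orm1, an acute phase protein, stood at 0.17 ± 0.32 (SE, adjusted p = 0.68). None of these was called, and SE values of up to 0.67 left wide room around 0.

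The glutathione transferases Gstm1, Gstm4 and Gstm6, which conjugate reactive lipids and foreign compounds, lie in 1 cluster on chromosome 3 and are close copies, so their counts are uncertain in the same way as those of the lectins. Gstm1 had lowest, median and highest levels of 205, 292 and 348 CPM in CD mice and 431, 574 and 791 in HFD mice at 8 weeks. At 20 weeks Gstm1 stood at 260.2, 292 and 320.3 in CD mice and 220.2, 259.6 and 373 in HFD mice. At 34 weeks Gstm1 stood at 181, 399.9 and 711 in CD mice and 190.4, 237 and 301 in HFD mice. For all 3 genes every HFD mouse stood above every CD mouse at 8 weeks, and the diets overlapped at 20 weeks. The 20 week difference was -0.13 ± 0.22 (SE, adjusted p = 0.625) for Gstm1, -0.20 ± 0.17 (SE, adjusted p = 0.324) for Gstm4 and -0.34 ± 0.25 (SE, adjusted p = 0.247) for Gstm6, none called. The glutathione and antioxidant list had 45 tested genes, of which 7 were higher and 18 lower at 20 weeks with a median of -0.34, and 4 were higher and 22 lower with TMM scaling. Other enzymes that modify small molecules were Cbr2, a carbonyl reductase, at -0.44 ± 0.41 (SE, adjusted p = 0.358), Aldh1a7, an aldehyde dehydrogenase, at 0.20 ± 0.28 (SE, adjusted p = 0.558), Aldh3b2, another, at -0.40 ± 0.18 (SE, adjusted p = 0.0501) and Ugt3a2, a glycosyltransferase, at 0.37 ± 0.31 (SE, adjusted p = 0.313). None was called, although with TMM scaling Aldh3b2 was called lower, at -0.61 with an adjusted p of 0.00422 (0.00418 to 0.0981 over the 21 alternatives).

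Ltc4s, leukotriene C4 synthase, a glutathione-using enzyme of inflammatory lipid synthesis, was called higher at 20 weeks. Ltc4s had lowest, median and highest levels of 39.4, 50.3 and 79.4 CPM in CD mice and 82.3, 108 and 159 in HFD mice at 8 weeks. At 20 weeks Ltc4s stood at 32.8, 45.1 and 58.9 in CD mice and 79.7, 89.2 and 111 in HFD mice. At 34 weeks Ltc4s stood at 100.2, 110.5 and 178 in CD mice and 52.8, 76 and 118 in HFD mice. No HFD mouse overlapped the CD range at the first 2 times, and at the last the ranges overlapped. Its difference at 20 weeks was 1.04 ± 0.19 (SE, adjusted p = 2.21e-05) after 1.08 at 8 weeks.

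Matrix genes among the 100 were called higher in HFD at 20 weeks or not called. Serpinh1, the collagen chaperone of the endoplasmic reticulum, Nid2, a basement membrane nidogen, and Islr, a secreted protein of stromal cells, were called higher. Adamtsl2, which binds fibrillin matrix, was not called. Serpinh1 had lowest, median and highest levels of 199, 217 and 265 CPM in CD mice and 325, 801 and 1031 in HFD mice at 8 weeks. At 20 weeks Serpinh1 stood at 101, 159 and 211 in CD mice and 198, 383 and 458 in HFD mice. At 34 weeks Serpinh1 stood at 224, 499 and 601 in CD mice and 216, 314 and 524 in HFD mice. The diets overlapped at 20 weeks through 1 HFD mouse with 198 CPM, below the highest CD mouse. The difference was 1.21 ± 0.25 (SE, adjusted p = 0.000111) for Serpinh1, 1.28 ± 0.29 (SE, adjusted p = 0.000301) for Islr, 0.67 ± 0.29 (SE, adjusted p = 0.0453) for Nid2 and 0.75 ± 0.37 (SE, adjusted p = 0.0831) for Adamtsl2. Nid2 was not called with TMM scaling, at 0.45 with an adjusted p of 0.156 (0.000863 to 0.203 over the 21 alternatives). Nid2 had lowest, median and highest levels of 47.8, 66.4 and 107 CPM in CD mice and 78.2, 154 and 193 in HFD mice at 8 weeks. At 20 weeks Nid2 stood at 19.6, 54.5 and 89.6 in CD mice and 44.5, 87.9 and 104 in HFD mice. At 34 weeks Nid2 stood at 71.4, 137 and 191 in CD mice and 40.3, 71.3 and 106 in HFD mice. The diets overlapped at all 3 times. Of the 81 tested genes of the list of matrix glycoproteins, proteoglycans and remodeling, 55 were higher and 6 lower at 20 weeks, 50 and 7 with TMM scaling, with a median of 1.02. The list median at 34 weeks was 0.53, above 0, where the 3 members of the list were below 0 by the choice. Markers of progenitors and fibroblasts moved with the matrix genes at 20 weeks: of 18 tested, 15 were called higher and 1 lower with a median of 2.09, and 13 and 2 with TMM scaling. The summed level of the 21 listed was 12081 to 15179 CPM in CD and 12421 to 17061 CPM in HFD mice at 20 weeks, and none was at 0 in every mouse. Their part in the values of Serpinh1, Nid2 and Islr was not tested.

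Amotl2, an angiomotin of cell junctions, and Gjc1, a gap junction connexin, were called higher with no overlap between the diets. Amotl2 had lowest, median and highest levels of 119, 173 and 337 CPM in CD mice and 283, 359 and 416 in HFD mice at 8 weeks. At 20 weeks Amotl2 stood at 28, 79.5 and 139 in CD mice and 185, 206 and 297 in HFD mice. At 34 weeks Amotl2 stood at 189.6, 346 and 594 in CD mice and 177, 228 and 429.7 in HFD mice. The CD mice at 20 weeks had the lowest median of any group for Amotl2. The difference was 1.64 ± 0.29 (SE, adjusted p = 1.31e-05) for Amotl2, above its 8 week value of 0.90, and 1.11 ± 0.22 (SE, adjusted p = 6.54e-05) for Gjc1, above its 8 week value of 0.72. Erbb2, a receptor tyrosine kinase, stood at 0.73 ± 0.22 (SE, adjusted p = 0.00446) and Irs3, an insulin receptor substrate of rodent fat, at 0.63 ± 0.23 (SE, adjusted p = 0.0199), both called, and Spry4, an inhibitor of kinase signalling, at 0.45 ± 0.18 (SE, adjusted p = 0.0363). With TMM scaling Irs3 was not called, at 0.43 with an adjusted p of 0.128 (0.00196 to 0.156 over the 21 alternatives), nor was Spry4, at 0.24 with an adjusted p of 0.211 (0.000633 to 0.211 over the 21 alternatives). Amhr2, the receptor for anti-Müllerian hormone, Unc5a, a netrin receptor, and Ackr3, a scavenging chemokine receptor, stood at -0.14 ± 0.30 (SE, adjusted p = 0.72), 0.17 ± 0.24 (SE, adjusted p = 0.575) and 0.31 ± 0.37 (SE, adjusted p = 0.494), none called. Unc5a overlaps exons of Hk3 on the opposite strand.

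Among regulators of transcription and growth, Ndn, the imprinted growth suppressor necdin, stood at 0.54 ± 0.23 (SE, adjusted p = 0.0413) and Ier2, an immediate early gene, at 0.62 ± 0.25 (SE, adjusted p = 0.0312) at 20 weeks. Both calls were lost with TMM scaling, with adjusted p of 0.186 for Ndn (0.00594 to 0.186 over the 21 alternatives) and 0.167 for Ier2 (0.00151 to 0.167 over the 21 alternatives). Dmrt2, a DM domain factor, and Bmyc, a Myc relative, stood at -0.24 ± 0.22 (SE, adjusted p = 0.372) and 0.31 ± 0.16 (SE, adjusted p = 0.109). Kinases and energy enzymes called higher were Ak1, adenylate kinase, at 1.33 ± 0.25 (SE, adjusted p = 4.10e-05), Cdkl4 at 1.95 ± 0.53 (SE, adjusted p = 0.00232), Dclk3 at 1.11 ± 0.37 (SE, adjusted p = 0.0109), Dmpk at 0.66 ± 0.22 (SE, adjusted p = 0.00974) and Gamt, which makes creatine, at 0.53 ± 0.21 (SE, adjusted p = 0.0309). Dmpk and Gamt were not called with TMM scaling, with adjusted p of 0.0692 (3.21e-05 to 0.0692 over the 21 alternatives) and 0.184 (0.000665 to 0.184 over the 21 alternatives). Cdkl4 was near the limit of counting in CD mice, with a median of 0.590 CPM at 20 weeks against 7.19 CPM in HFD mice, and the ranges touched at 5.04 and 5.01 CPM. Gpt, alanine aminotransferase, Psph, of serine synthesis, and Abat, of GABA breakdown, stood at -0.09, 0.09 and 0.30, none called. Of trafficking genes, Golga7b, a palmitoylation partner, stood at 1.07 ± 0.35 (SE, adjusted p = 0.00955) and Rab3a, a GTPase of secretion, at 0.94 ± 0.21 (SE, adjusted p = 0.000339), both called higher. Rab9b, a GTPase of endosomes, stood at -0.66 ± 0.27 (SE, adjusted p = 0.0399), called lower. It was called in 11 of the 21 alternatives, with adjusted p of 5.32e-05 to 0.0762. Enho, which encodes the peptide adropin, stood at 0.82 ± 0.28 (SE, adjusted p = 0.0123), called higher. Msln, a mesothelial surface protein, stood at 0.43 ± 0.46 (SE, adjusted p = 0.433), and the 16 mesothelial markers summed to 45.4 to 133 CPM in CD and 152 to 332 CPM in HFD mice at 20 weeks.

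**Figure D5:**
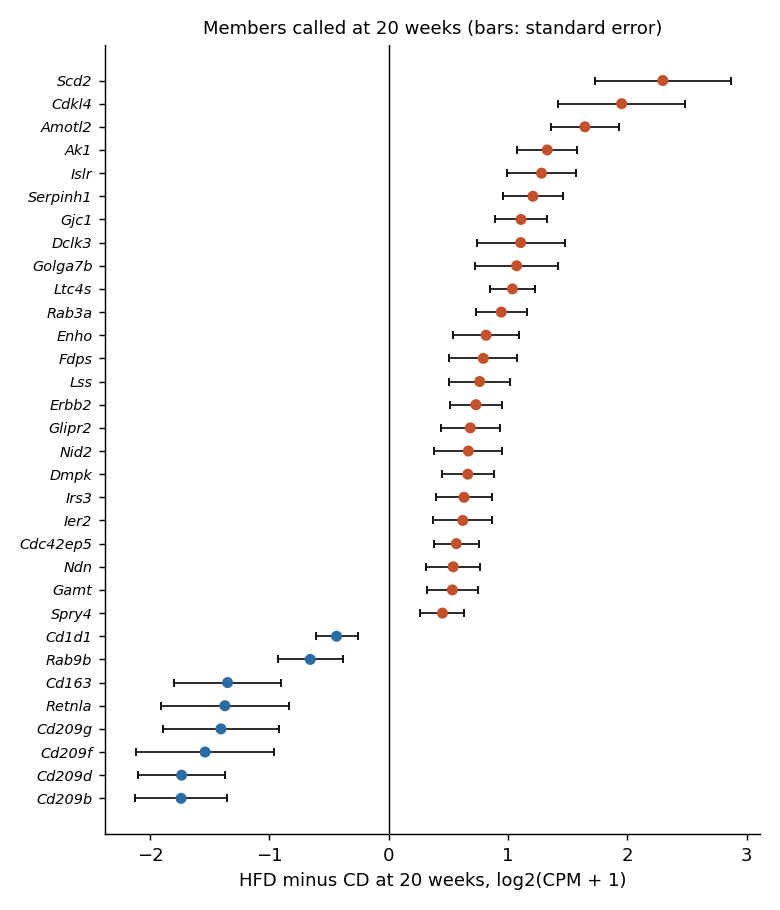
Differences between HFD and CD at 20 weeks in log2(CPM + 1), with bars of 1 SE, for 32 of the 33 genes called by limma. The lowest are the lectins Cd209b and Cd209d at -1.74 and the highest are Scd2 at 2.30 and Cdkl4 at 1.95.

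Genes were also compared between mice of the same group. After each group's mean was taken out, the median correlation between pairs of genes over the 38 mice was 0.29 (Pearson; Spearman 0.25) among the 100 and 0.04 (Spearman 0.03) over all pairs of genes tested. All of these points share their libraries and their depth, and the sets were named after the values were seen. The 38 mice include those at 8 and 34 weeks that chose the genes, so these correlations are a description only. The 8 macrophage genes had 0.78 among themselves (Spearman 0.71), and the 5 cholesterol genes 0.85 (Spearman 0.81). The 4 fatty acid genes had 0.80 (Spearman 0.80), and fatty acid with cholesterol genes had 0.78 (Spearman 0.77). Between the macrophage genes and the cholesterol or fatty acid genes the median was -0.03 and 0.03 (Spearman 0.07 and 0.10), and between the macrophage genes and the 3 glutathione transferases it was -0.41 (Spearman -0.22). The 3 interferon-stimulated genes had 0.15 among themselves (Spearman 0.14). CD mouse 5 at 34 weeks was the lowest of its group for the fatty acid, cholesterol and transferase means, at 6.61, 4.50 and 4.55, and the highest for the macrophage mean, at 5.36.

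Promoters were compared for the 73 members found in the RefSeq table, over the 250 bases before each RefSeq start and on both strands, where a match of letters is a description and no evidence of binding. TATAAA, the TATA box, was in 10 of them (13.7%) against 7.74% of genes tested, GGGCGG, the GC box, in 36 (49.3%) against 65.8%, and CCAAT in 36 (49.3%) against 40%. TTGCNNAA, a C/EBP site, was in 16 (21.9%) against 8.97%. TCACNCCAC, a sterol regulatory element, was in 1, Gstm6 (1.37%), against 1.28%, and CACGTG, an E-box, in 4 (5.48%) against 10.4%. These shares were not tested, and genes with several listed starts counted once if any start matched. The median GC content was 57.2% in members and 60.4% in genes tested. The Lss promoter, at chr10:76531355-76531604, plus strand, is shown as a cholesterol gene with a CCAAT box on the minus strand, ending 58 bases before the start, and 2 GC boxes, marked by capitals. No TCACNCCAC is in this window.
Lss: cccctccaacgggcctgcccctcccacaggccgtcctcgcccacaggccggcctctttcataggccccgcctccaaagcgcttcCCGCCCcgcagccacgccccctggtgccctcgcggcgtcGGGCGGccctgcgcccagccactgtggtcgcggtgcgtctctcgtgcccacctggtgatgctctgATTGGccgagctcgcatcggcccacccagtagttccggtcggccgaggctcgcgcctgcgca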

How the data were processed

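Per the labels and the methods, polyadenylated RNA of floated adipocytes was sequenced from stranded TruSeq libraries. The authors aligned reads to mm10 (GRCm38) with STAR and counted them per gene with featureCounts of Subread 1.5.1; the submitters' processing notes name STAR 2.5 and 2.5.2b, edgeR and limma. They kept genes that have an Entrez identifier. The deposited values are CPM, 1 column per mouse, each summing to 1000000, so that the TMM scaling named in the methods is not in them. Whole reads were recovered from the CPM steps, with every value within 0.1 of a whole read.

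Here log2(CPM + 1) was fitted with limma 3.58.1 (R 4.3.3) over all 6 groups and 10343 genes with a mean above 2, with 32 residual degrees of freedom. Of the CPM columns 0 belonged to other series. Alternatives were TMM and median-of-ratios scaling, pseudocount 0.5, no filter, the 20 week mice alone, array weights, the mouse number as a block, edgeR 4.0.16 (quasi-likelihood) and DESeq2 1.42.0 on whole reads, and leaving out each mouse. Of these, only the limma and edgeR fits were also run on simulated reads. The simulated libraries had no shift of all genes between them, so they cannot tell how the calls depend on scaling.

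The genes, the lists and the tests were chosen with earlier results of these data known. Genes named in the text are the 15 members with the largest smaller difference, up to 8 called in each direction at 20 weeks, 30 in the lists, and those at the threshold, and predicted genes were passed over in the first 2 groups. Other members were named for their role after their values were seen. Results of some members are not reported here. Nothing in the labels says that mice of a group were housed or bred separately, so p-values measure the spread between these mice. Promoters come from the RefSeq table of GRCm38.p6, which held 73 members. Exon overlaps come from GENCODE vM21. The study counted reads on an earlier GENCODE release, so an overlap given here may be absent from the annotation that was counted. Stromal cell libraries were not analysed here.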

Additional observations from a re-analysis of the deposited data

Results flagged for a closer look

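Levels below are in log2(CPM + 1). A mouse was singled out where its gap to the nearest mouse of its group, over the range of the group, passed Dixon's critical value, for the mean over the 100 genes and for 17 members, in 108 sets of mice. Of these sets 11 had such a mouse, and chance alone singles out about 1 in 20. No explanation was tested.

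CD mouse 5 at 34 weeks was low for the mean over the 100 genes, at 4.45 with the other mice between 5.05 and 5.41, for Scd2 at 7.18 (others 9.59 to 10.76), for Lss at 4.66 (others 5.78 to 6.64) and for Nid2 at 6.18 (others 6.97 to 7.59).

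HFD mouse 4 at 20 weeks was low for Scd2 at 6.34 (others 8.21 to 8.79), Elovl6 at 3.46 (others 4.47 to 4.85), Nid2 at 5.51 (others 6.36 to 6.72) and Serpinh1 at 7.64 (others 8.55 to 8.84).

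Cd209b was low in HFD mouse 5 at 34 weeks, at 0.87 (others 1.48 to 1.70). Cd209d was high in HFD mouse 6 at 8 weeks, at 4.49 (others 2.85 to 3.44), and low in CD mouse 3 at 20 weeks, at 2.60 (others 3.55 to 3.99).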

How the results depend on the processing

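The count of members called higher at 20 weeks was 25, and it fell to 13 with TMM scaling, 15 with edgeR on whole reads and 16 with median-of-ratios scaling, all of them among the 25, and it rose to 31 in the 20 week mice alone, 24 of them among the 25, and to 35 with array weights, which included the 25. The count called lower was 8, and it was 16 with TMM scaling, 16 in the 20 week mice alone, 15 with edgeR, 15 with DESeq2 and 18 with array weights, each including the 8. The cause was not tested, beyond the shift of all genes under TMM from 0.14 to -0.07. Beside the main fit, counts over all genes were taken for TMM and median-of-ratios scaling only, as given above. Leaving out 1 mouse gave 18 to 26 higher, the 18 without CD mouse 3, and 5 to 9 lower, the 5 without CD mouse 5 or without HFD mouse 1. The median difference of the 100 at 20 weeks was 0.07 to 0.21 over those mice, -0.05 with TMM scaling and -0.01 with median-of-ratios scaling, where all genes moved with it. Of the 100 genes, 88 to 99 were chosen again when a mouse of 8 or 34 weeks was left out, 53 of them each time, and 86 with TMM scaling, 85 with median-of-ratios scaling, 93 with pseudocount 0.5, 79 with a mean above 1 and 73 with group medians. Genes with both signs numbered 2021 to 2430 in these settings.

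Samples of the same number were not paired by the labels. The deviations of same-numbered CD and HFD mice at 20 weeks correlated at 0.19, -0.14, -0.12, 0.16, -0.23 and 0.30. Mice of different numbers were not compared, so these values cannot tell whether a number stands for something shared. With the mouse number as a block, 26 members were higher and 8 lower. For the 51 members picked by the naming rule, 931 values over the 21 settings kept their side of the threshold and their sign. Another 75 fell short of it, 30 passed it and 36 changed sign without a call in either setting. The 931 include the median of the 100 at 34 weeks without CD mouse 5, which is no single member. No called value of the 51 changed sign in the settings run. In the shallowest library 1 read is 0.108 CPM, so members below 1 CPM in some mice, such as Cdkl4 and Cd209b, rest on few reads there.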
